A study of Mus musculus with 27 samples.

Results

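The 7 genes described here are Nppa, Nppb, Myh6, Myh7, Acta1, Ankrd1 and Xirp2, the natriuretic peptide genes and the muscle genes usually read with them. They were taken by symbol from a deposited count table of 27304 genes, and all 7 were found once. The libraries came from the hearts of male ApoE-/- mice of the C57BL/6J strain, which ate a western diet for 4 weeks and then had a myocardial infarction. The chronic kidney disease (CKD) group received adenine in that diet, at 0.3% over 10 days and at 0.15% over 11 more, of which 4 days fell before the infarction and 7 after it. Controls stayed on the western diet throughout. Tissue was taken 7 days after infarction, from the infarct (6 control and 7 CKD mice) and from myocardium remote to it (6 control and 8 CKD mice). Of the 14 mice, 13 gave both pieces. All groups share the ApoE-/- genotype, the western diet and the infarction, and no uninfarcted heart was analysed here, so the remote pieces are the reference for the infarct.

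Nppa and Nppb encode the atrial and B-type natriuretic peptides, hormones that heart muscle releases under stretch and that raise cyclic GMP in target cells through the receptor Npr1. In the mouse, Nppa and Myh7, the slow beta myosin heavy chain, are active in the ventricle before birth, when Acta1, the skeletal alpha actin, is also expressed there. After birth they give way in large part to Myh6, the fast alpha myosin heavy chain, and to cardiac actin. Under overload or injury the early genes become active again, together with Ankrd1, a stretch-responsive repeat protein of the sarcomere and nucleus, and Xirp2, an actin-binding protein of the intercalated disc.

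The promoters of 4 genes are shown, because Nppa and Nppb are neighbours, Ankrd1 tracked Nppb most closely of the 7 genes between libraries, and Acta1 holds a motif the others lack. Each run gives the 250 bases before the annotated start in RefSeq, build GRCm38.p6, 5′ to 3′ on the gene's strand. They lie at chr4:148000472-148000721 on the plus strand for Nppa and chr4:147985650-147985899 on the plus strand for Nppb. The run of Ankrd1 is at chr19:36119845-36120094 and that of Acta1 at chr8:123894776-123895025, both on the minus strand. Capitals mark matches, on either strand, to AGATAA (a motif of GATA factors), CATTCC (of TEAD factors), AAGTG (of NKX2-5) and the CArG box of serum response factor.
Nppa: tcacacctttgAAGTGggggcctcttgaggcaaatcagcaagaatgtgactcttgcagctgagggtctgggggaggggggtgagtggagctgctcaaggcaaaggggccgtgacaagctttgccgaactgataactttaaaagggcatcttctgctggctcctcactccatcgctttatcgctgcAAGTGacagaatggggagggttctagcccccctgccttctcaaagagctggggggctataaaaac
Nppb: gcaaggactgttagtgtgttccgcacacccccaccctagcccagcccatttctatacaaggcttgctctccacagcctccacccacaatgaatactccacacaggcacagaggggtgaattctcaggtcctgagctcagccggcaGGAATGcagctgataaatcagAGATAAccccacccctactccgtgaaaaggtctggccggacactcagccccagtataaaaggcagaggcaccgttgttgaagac
Ankrd1: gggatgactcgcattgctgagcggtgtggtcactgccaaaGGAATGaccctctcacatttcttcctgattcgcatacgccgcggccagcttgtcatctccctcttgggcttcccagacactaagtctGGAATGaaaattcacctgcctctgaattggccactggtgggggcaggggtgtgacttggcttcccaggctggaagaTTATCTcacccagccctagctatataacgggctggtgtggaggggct
Acta1: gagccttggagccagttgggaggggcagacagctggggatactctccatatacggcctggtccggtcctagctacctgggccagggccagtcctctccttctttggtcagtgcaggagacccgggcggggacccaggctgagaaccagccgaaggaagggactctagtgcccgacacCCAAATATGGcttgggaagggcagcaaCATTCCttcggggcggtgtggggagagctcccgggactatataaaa
The starts of Nppb and Nppa lie 14.8 kb apart on chromosome 4. AGATAA was found in the windows of Nppb and Ankrd1, and in 11.2% of all 32851 promoter windows of the table. CATTCC was found in 5 of the 7 genes (Nppb, Myh6, Myh7, Acta1 and Ankrd1), against 14.7% of all windows. A gene was counted if any of its windows held a match, while the percentages count windows. Myh7 had windows at different starts, and CATTCC was not found in all of them. The windows searched run on past the start. AAGTG was found in 5 of the 7, against 46.4% (in Acta1 its 1 match lies 42 bases past the start, outside the printed run), and the E-box CANNTG in all 7, against 72.3%. In Nppa one AAGTG lies inside an E-box match. The CArG box was found in Acta1, against 1.63% of all windows. These matches describe letters in the windows and show no binding.

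Levels are given as CPM, a gene's counts scaled to a common library total, over libraries of 14255456 to 42566498 counts. Fold changes are log2 values from edgeR's quasi-likelihood test with TMM scaling, given with their standard error, and a gene is called where the Benjamini-Hochberg adjusted p over all genes tested is under 0.05. All 7 genes passed the filter on low counts in every comparison. All 12 genes of a heart muscle list were detected in all 27 libraries, and their mean log2 CPM (the muscle score) was 11.97 ± 0.18 (SD, n = 14) in remote and 10.78 ± 1.12 (n = 13) in infarct libraries. Apoe, the targeted gene, still gave 11.5 to 44.8 CPM.

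Several libraries stood apart from their labels or groups. The remote library of control mouse 9180 had a muscle score of 11.44 and a sum of 16162 CPM over 8 matrix genes of activated fibroblasts, where the other remote libraries had at most 3630 CPM. In CKD mouse 9179 the infarct library scored 12.07, with a matrix sum of 307 CPM, the lowest of all 27 libraries. In CKD mouse 9172 it scored 11.88, with a sum of 5565 CPM. The infarct library of control mouse 9171 had the lowest score, 7.845. For the remote piece of mouse 9179 the title says CKD and the treatment label says control, and it was kept with CKD. Where leaving out 9180, or 9172 and 9179, changed a call or most moved a value below, the value without them is given.

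Nppa was higher in the infarct than in the remote piece of every heart that gave both. In control remote libraries it ran from 33.6 CPM over a median of 163 to 2036 CPM, and in control infarct libraries from 461 over 2206 to 2825 CPM. In CKD remote libraries it ran from 31.5 over 84.4 to 289 CPM, and in CKD infarct libraries from 261 over 1286 to 4704 CPM. The 2036 CPM belonged to mouse 9180. The other 5 control remote libraries had at most 295 CPM and lay below all 6 control infarct libraries. In CKD hearts the regions overlapped only through the infarct library of mouse 9179, at 261 CPM. Within hearts, Nppa was higher in the infarct in 6 of 6 control mice, by 1.39-fold (mouse 9180) to 68.5-fold, and in 7 of 7 CKD mice, by 4.45-fold to 61.4-fold.

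**Figure D1:**
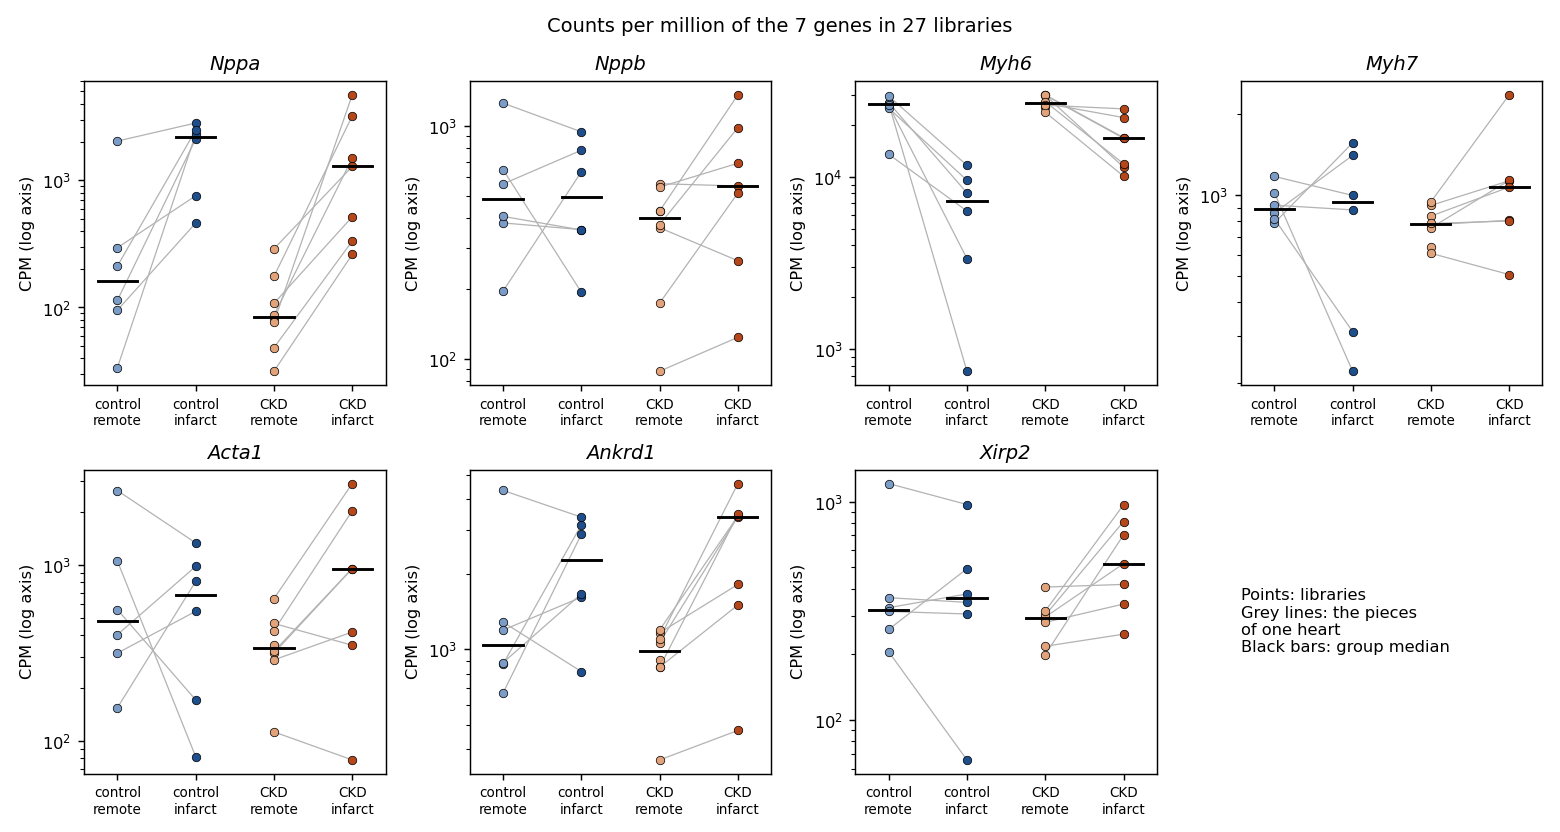
CPM on a log axis for each of the 7 genes, with 1 point per library, grey lines joining both pieces of a heart and black bars at the group medians. Every Nppa line rises and every Myh6 line falls from remote to infarct, while the lines of Nppb, Myh7 and Acta1 run in both directions.

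In CKD hearts Nppa rose in the infarct by a log2 fold change of 3.55 ± 0.72 (edgeR adjusted p = 0.000554). In control hearts the value was 1.68 ± 0.77 (adjusted p = 0.0574), which missed the threshold. Without the remote library of mouse 9180 it was 3.08 (adjusted p = 0.000646), and with mouse as a replicate block it was 2.46 (adjusted p = 0.0194). The 2 region effects were not shown to differ, since the difference of 1.87 ± 1.01 had an adjusted p of 0.318, and it was 0.48 without the 9180 library. Over the 4 groups the medians ran upward from CKD remote over control remote and CKD infarct to control infarct, and neither the remote pair nor the infarct pair of neighbours was called different.

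Nppa is also an atrial gene, so atrial markers are given beside it. Myl7, the atrial myosin light chain, was at 105 to 311 CPM in 6 of 14 remote libraries (2 control and 4 CKD) and at most 9.30 CPM in the other 8. Sln, the atrial sarcolipin, was at 12.1 to 63.8 CPM in those same 6. Among infarct libraries only that of mouse 9179 had such levels, with Myl7 at 171 CPM and Sln at 37.2 CPM, while the others had Myl7 at 0.203 to 3.003 CPM. In the 9180 remote library, with 2036 CPM of Nppa, Sln was at 0 and Myl7 at 0.767 CPM. The 8-gene atrial list summed to 340 to 1541 CPM in remote and 596 to 1418 CPM in infarct libraries. Its genes did not move together. Of 7 tested between regions, 1 was called higher (Dkk3, 2.06 ± 0.67) and 5 lower in control hearts, against 30.7% and 33.2% of all genes. In CKD hearts 2 were called higher (Dkk3 and Pam) and none lower, against 24.7% and 20.2%. Bmp10, another atrial gene, was at 0.772 CPM or less in all libraries. In mouse 9179 the remote piece had Myl7 at 1.95 CPM, and Nppa was 8.28-fold higher in the infarct piece. The part of atrial tissue in the Nppa levels of the remote pieces and of the 9179 infarct piece was not tested.

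**Figure D2:**
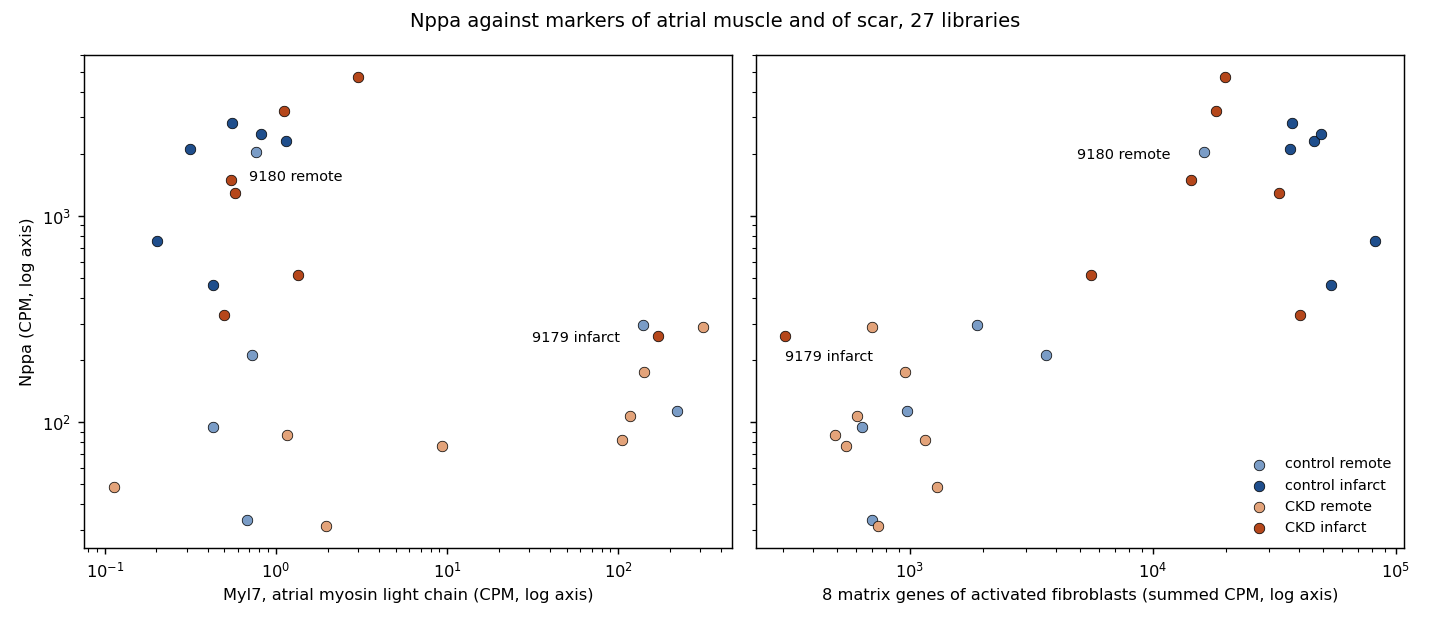
Nppa against Myl7 (left) and against the summed CPM of 8 matrix genes of activated fibroblasts (right), all axes logarithmic, with 1 point per library coloured by group. The libraries with 461 CPM of Nppa or more have Myl7 at 3.003 CPM or less, and the 9180 remote library, at 2036 CPM of Nppa and 16162 CPM of matrix genes, lies among the infarct libraries, while the 9179 infarct library lies among the remote ones.

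Nppb did not follow Nppa in the comparison of regions. In remote libraries it ran from 195 over a median of 485 to 1250 CPM in controls and from 88.4 over 403 to 564 CPM in CKD. In infarct libraries it ran from 193 over 496 to 941 CPM in controls and from 124 over 551 to 1356 CPM in CKD. The 4 groups overlapped throughout. The infarct piece was the higher one in 2 of 6 control and 5 of 7 CKD hearts, and the log2 fold changes were -0.49 ± 0.47 (adjusted p = 0.364) and 0.44 ± 0.42 (adjusted p = 0.393). Without the 9180 remote library the control value was -0.23, and without CKD infarct libraries 9172 and 9179 the CKD value was 0.68. Per kilobase of transcript, the median level of Nppa was 188 against 621 CPM per kb for Nppb in control remote tissue, and 2550 against 635 CPM per kb in control infarct tissue. By these medians the more abundant transcript of the pair was Nppb in remote and Nppa in infarct tissue, in CKD as in control hearts (97.6 against 516 and 1487 against 705 CPM per kb).

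Myh6, which supplies most myosin heavy chain of the adult mouse heart, was the member called lower in infarct tissue in both diets. In control hearts it ran from 13513 over 26371 to 29422 CPM in remote and from 743 over 7191 to 11661 CPM in infarct libraries, with no overlap. In CKD hearts it ran from 23717 over 26994 to 29909 CPM in remote and from 10080 over 16732 to 24796 CPM in infarct libraries, and these overlapped only through mouse 9179, at 24796 CPM. It was lower in the infarct in all 13 hearts with both pieces. Myh6 fell by 2.40 ± 0.45 in control hearts (edgeR adjusted p = 7.69e-05) and by 0.96 ± 0.39 in CKD hearts (adjusted p = 0.0461). The CKD call was lost when any 1 of 12 of the 15 CKD libraries was left out (adjusted p up to 0.0991). Without the infarct libraries of mice 9172 and 9179 the CKD value was -1.39 (edgeR adjusted p = 0.00531). The difference between diets, 1.44 ± 0.57, was not called (adjusted p = 0.185), and it was 0.98 without those libraries. In these bulk samples, fewer muscle cells and less Myh6 RNA per cell cannot be told apart.

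Myh7 differed less between regions. In control hearts it ran from 789 over a median of 890 to 1176 CPM in remote and from 222 over 941 to 1567 CPM in infarct libraries. In CKD hearts it ran from 609 over 782 to 946 CPM in remote and from 508 over 1073 to 2363 CPM in infarct libraries. The infarct range enclosed the remote range in both diets. The log2 fold changes were -0.52 ± 0.35 (adjusted p = 0.202) in control and 0.21 ± 0.32 (adjusted p = 0.593) in CKD hearts.

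Myosin isoform share is a ratio within a library and needs no scaling between libraries. Myh7 made up 2.84% to 8.004% of Myh6 and Myh7 counts in control remote libraries (mean 3.99 ± 1.99, SD, n = 6), where 9180 had the 8.004%. It made up 7.04% to 23.01% in control infarct libraries (13.6 ± 5.75, n = 6), with the highest share in mouse 9171. In CKD hearts it made up 2.47% to 3.08% in remote (2.78 ± 0.26, n = 8) and 3.14% to 12.4% in infarct libraries (6.78 ± 3.34, n = 7). The shares of CKD remote and CKD infarct libraries did not overlap, and those of control hearts overlapped only through the 9180 remote library.

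**Figure D3:**
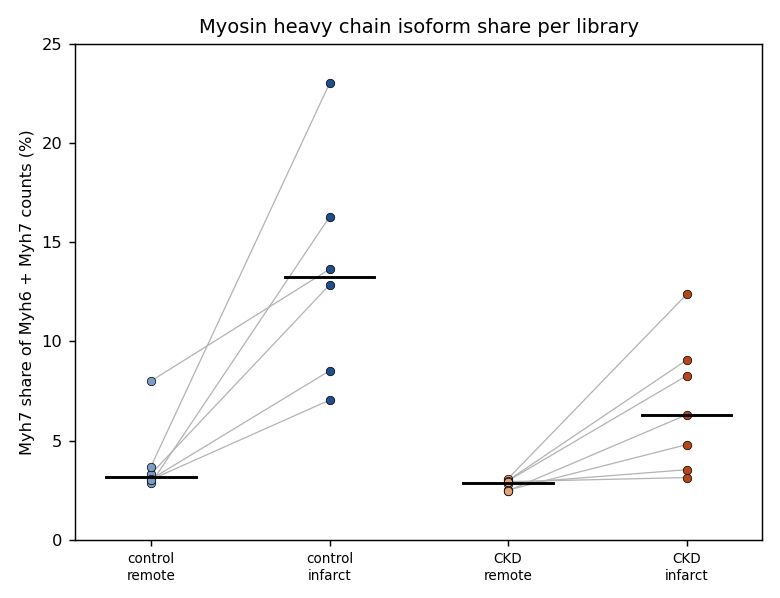
Myh7 as a percentage of Myh6 and Myh7 counts, with 1 point per library, grey lines joining both pieces of a heart and black bars at the group medians. The share is higher in the infarct piece of every heart with both pieces, and CKD infarct libraries have a median of 6.30% against 13.3% in control infarct libraries.

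The log2 ratio of Myh7 to Myh6 was higher in the infarct by 1.92 over 6 control hearts (exact two-sided sign-flip test, p = 0.03125, the smallest possible, adjusted p = 0.0391 over 5 ratio tests). In 7 CKD hearts it was higher by 1.17 (exact p = 0.01562, the smallest possible, adjusted p = 0.0340). CKD libraries had the lower ratio in both regions. The difference was -0.44 in remote tissue (exact two-sided permutation p = 0.00799, adjusted p = 0.0340) and -0.20 without the 9180 library (exact permutation p = 0.0365). In infarct tissue it was -1.16 (exact permutation p = 0.0204, adjusted p = 0.0340), and -0.79 (exact permutation p = 0.0801) with CKD infarct libraries 9172 and 9179 left out. The region effect was not shown to differ between diets (difference -0.74, exact permutation p = 0.121), and without the infarct libraries of 9172 and 9179 the difference was -0.36 (exact permutation p = 0.4004). The mean muscle score was higher in CKD in both regions. It was 11.85 ± 0.22 in control and 12.06 ± 0.09 in CKD remote libraries. In infarct libraries it was 10.04 ± 1.23 in control and 11.42 ± 0.49 in CKD. The median matrix sum of remote libraries was 1426 CPM in control and 717 CPM in CKD. The part of this makeup in the ratio was not tested in either region. Both myosins are close paralogs, and how reads were divided between them is uncertain. Mhrt, an RNA transcribed antisense at the Myh7 locus, was at 0.487 to 171 CPM, and strand use in counting is not stated.

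Of Acta1, Ankrd1 and Xirp2, Ankrd1 alone was called between regions, in CKD hearts. Ankrd1 ran from 361 over 984 to 1196 CPM in CKD remote and from 474 over 3403 to 4616 CPM in CKD infarct libraries, overlapping only through the infarct library of mouse 9179. It was higher in the infarct in 7 of 7 CKD hearts and rose by 1.17 ± 0.38 (edgeR adjusted p = 0.0153). In control hearts it ran from 668 over 1040 to 4333 CPM in remote and from 816 over 2278 to 3387 CPM in infarct libraries, with the 4333 CPM in mouse 9180. The control value was 0.17 ± 0.42 (adjusted p = 0.733), and 0.66 (adjusted p = 0.135) without that library. The difference between diets, 1.001 ± 0.56, was not called (adjusted p = 0.340), and it was 0.50 without that library.

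Acta1 spread widely within each group. It ran from 155 over 483 to 2666 CPM in control remote and from 81.9 over 679 to 1343 CPM in control infarct libraries. In CKD it ran from 113 over 340 to 647 CPM in remote and from 78.4 over 960 to 2920 CPM in infarct libraries. The highest control remote value was again that of mouse 9180, and the lowest value of all was in the infarct library of mouse 9179. The region effect was 1.22 ± 0.60 in CKD hearts (adjusted p = 0.0938), and 1.64 (adjusted p = 0.0194) without the infarct libraries of mice 9172 and 9179. It was -0.73 ± 0.67 in control hearts (adjusted p = 0.343), and -0.11 without the 9180 remote library.

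Xirp2 ran from 206 over 321 to 1209 CPM in control remote and from 65.8 over 362 to 969 CPM in control infarct libraries. In CKD it ran from 200 over 294 to 407 CPM in remote and from 247 over 520 to 966 CPM in infarct libraries. Both highest control values came from mouse 9180. It was higher in the infarct in 2 of 6 control and 7 of 7 CKD hearts. The region effects were -0.46 ± 0.42 (adjusted p = 0.346) in control and 0.67 ± 0.38 (adjusted p = 0.146) in CKD hearts, and the latter was 0.63 (adjusted p = 0.0462) with mouse as a replicate block. Without the 9180 remote library the control value was -0.0093.

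In control hearts, 1 of the 7 genes was thus called between regions (Myh6, lower), where 63.9% of the 14770 genes tested were called, 30.7% higher and 33.2% lower. In CKD hearts 3 of 7 were called (Nppa and Ankrd1 higher, Myh6 lower), where 45.0% of genes were, 24.7% higher and 20.2% lower. The control count lay below the share over all genes, and the CKD count was near it. The 4528 genes higher and 4909 lower in control infarcts became 8217 and 2481 when library totals replaced TMM factors, and the median over all genes moved from -0.01 to 0.48. In CKD hearts 3654 higher and 2990 lower became 6503 and 1201, with a median of 0.28. With library totals Nppa was 1.97 in control hearts (adjusted p = 0.0327) and Myh6 was -0.75 in CKD hearts (adjusted p = 0.0662).

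**Figure D4:**
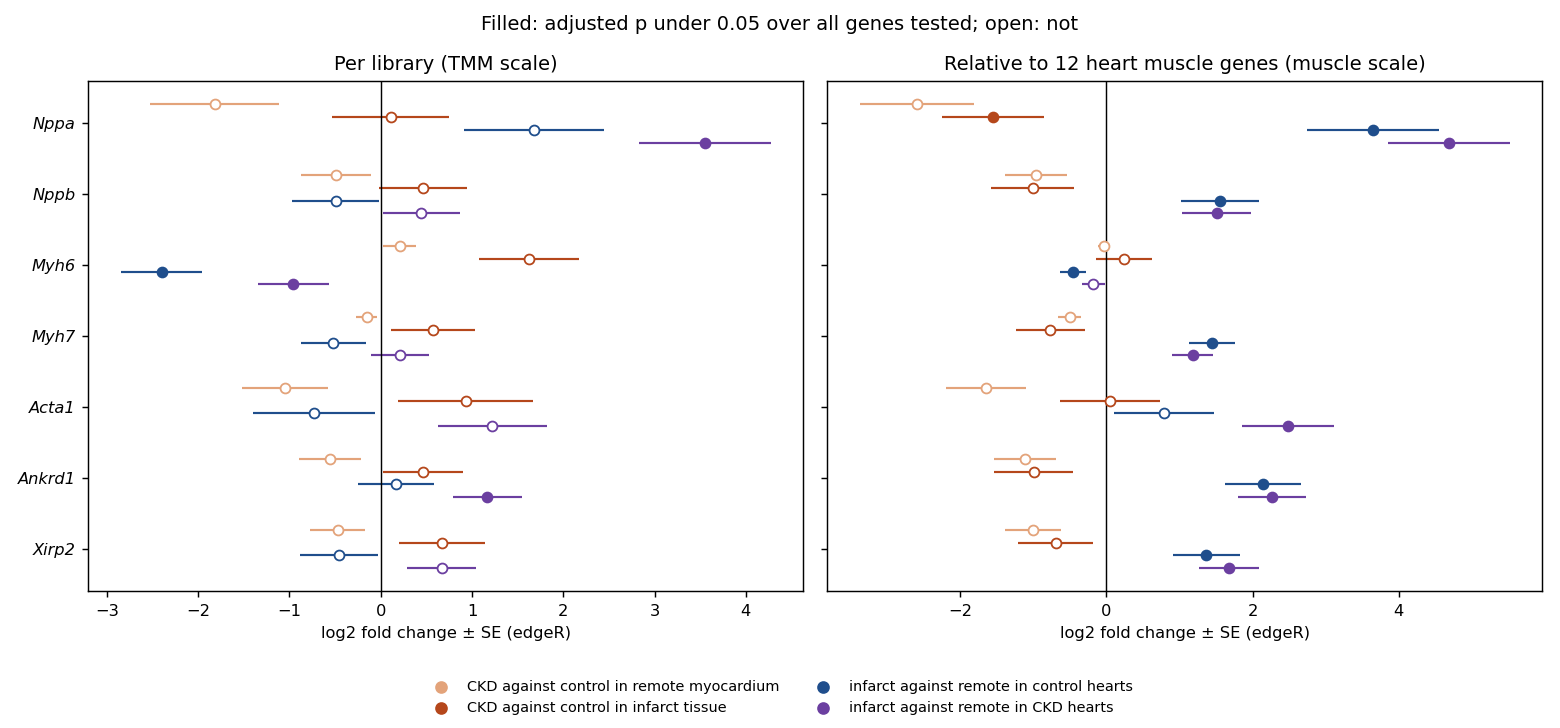
Log2 fold changes with standard errors of the 7 genes in 4 comparisons, on the TMM scale (left) and on the muscle scale (right), where 12 heart muscle genes are held equal. Filled points were called. On the left Nppa in CKD hearts (3.55) and Myh6 in control hearts (-2.40) lie farthest from 0, and on the right 6 genes lie above 0 in both region comparisons.

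Since infarct libraries had lower muscle scores, the genes were also compared after each library was scaled to the same level of the 12 heart muscle genes. On this muscle scale 5 of 7 genes were called higher in control infarcts: Nppa 3.65 ± 0.90, Ankrd1 2.14 ± 0.52, Nppb 1.55 ± 0.53, Myh7 1.44 ± 0.32 and Xirp2 1.37 ± 0.46. Myh6 was called lower, at -0.45 ± 0.18. Acta1 was not called, at 0.78 (adjusted p = 0.267). It was called with the replicate block (1.47, adjusted p = 0.0150) and without libraries 9172, 9179 and 9180 (1.83, adjusted p = 0.00115). Among all genes, 93.6% were called higher, 0.731% were called lower and the median was 2.79, so 5 of 7 lay below the share of all genes. The Myh6 call was lost with a second list of muscle genes as the scale (-0.19, adjusted p = 0.367) and with the replicate block (-0.47, adjusted p = 0.332). The 10 genes of that second list ran from -0.93 to 0.68 with a median of -0.69. In CKD hearts 6 of 7 were called higher, against 57.7% of genes, with Nppa at 4.69 ± 0.83, Acta1 at 2.48 ± 0.63 and Ankrd1 at 2.26 ± 0.46. There the second muscle list ran from -0.50 to 0.52 with a median of -0.11, and all genes had a median of 1.02. Per heart, Nppa, Nppb, Ankrd1 and Xirp2 relative to muscle were higher in the infarct in 6 of 6 control and 7 of 7 CKD hearts, Myh7 in 6 and 6, Acta1 in 5 and 5, and Myh6 in none.

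None of the 7 genes was called between CKD and control remote myocardium, where 3 of 13902 genes (0.0216%) were called. The log2 fold changes were -1.82 ± 0.71 for Nppa (adjusted p = 0.355), -1.05 ± 0.47 for Acta1 (adjusted p = 0.406) and -0.56 to 0.21 for the other 5. At an unadjusted p under 0.05, edgeR gave 2 of the 7 and 1626 of the 13902 genes. DESeq2 called 0 of the 7 and 162 genes of the table. The largest of these values rested on the 9180 library: without it Nppa was -0.36, Acta1 -0.38, Ankrd1 -0.02, and Xirp2 went from -0.47 to 0.02. On the muscle scale none was called either, with Nppa at -2.59 ± 0.78 (adjusted p = 0.110) and 8 of 13902 genes (0.0575%) called.

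In infarct tissue CKD again called 0 of 7, where 20.3% of 14358 genes were called, 13.1% higher. All 7 values were above 0, against a median over all genes of -0.02, with Myh6 at 1.62 ± 0.55 (adjusted p = 0.0512), Acta1 at 0.93 ± 0.74, Xirp2 at 0.67 ± 0.47 and Nppa at 0.11 ± 0.64. Nppa was -0.11 with library totals. Myh6 alone of the 7 passed at an unadjusted p under 0.05, where 5765 of the 14358 genes did. DESeq2 called Myh6 (1.64, adjusted p = 0.00816) among 4438 genes of the table. The muscle score was higher in CKD infarct libraries, as given above, and the matrix sum was 18798 ± 14181 CPM against 50903 ± 16638 CPM in controls. The part of this difference in makeup was not tested. Without the infarct libraries of mice 9172 and 9179 no gene of the table was called by edgeR (Myh6 1.16, Nppa 0.44), and the count was also 0 without any 1 of control libraries 9171, 9182 and 9183 or CKD libraries 9172 and 9177. On the muscle scale Nppa was the 1 member called, at -1.55 ± 0.70 (adjusted p = 0.0426), where 89.4% of genes were called lower and the median was -2.10. It was -1.13 (adjusted p = 0.108) without the libraries of 9172, 9179 and 9180.

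The CKD effect did not differ detectably between regions for any member. The differences ran from 0.73 for Myh7 to 1.95 ± 0.90 for Acta1 (adjusted p = 0.241), all above 0, with 0 of 7 called and 0 of 14770 genes (0%). Without the 9180 remote library they ran from 0.48 for Nppa to 1.599 for Myh6, and Acta1 was 1.33. At an unadjusted p under 0.05, edgeR gave 2 of the 7 and 2787 of all genes, and DESeq2 called 0 and 9. All 12 heart muscle genes (median 1.27) and all 10 of the second muscle list (median 1.53) were above 0 too. The median over all genes was 0.06. On the muscle scale 5 of the 7 were above 0, with a median of 0.28 against -1.69 over all genes. There 0 of the 7 and 10472 of all genes were called, or 0 of all genes with the replicate block. The part of muscle content was not tested.

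The other genes of these pathways are given as 4 lists. Each has its counts on both scales between regions and for CKD in infarct tissue. The genes named are those with the lowest p. The heart muscle list also differed between groups. On the TMM scale all 12 of its genes fell in control infarcts (median -2.13) and 3 fell in CKD infarcts (median -0.89). In CKD against control infarct tissue 5 of its 12 genes (median 1.43) and 8 of 10 in the second muscle list (median 1.82) were called higher, where 13.1% of all genes were. The part of muscle content in the list counts was not tested. Since no gene was called for CKD in infarct tissue without the libraries named above, no list gene was either.

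Of 13 other genes of the natriuretic peptide system 12 were tested between regions, and in control hearts 2 rose and 8 fell, against 30.7% and 33.2% of all genes. All 12 were called higher on the muscle scale, as were 93.6% of all genes. Among the falls on the TMM scale the lowest p belonged to Npr1, the receptor of both hormones (-0.76 ± 0.14), Corin, the protease that activates the atrial peptide (-1.52 ± 0.30), and Npr2, the receptor of the C-type peptide (-0.48 ± 0.10). Pde5a, which degrades cyclic GMP, rose by 1.09 ± 0.21. In CKD hearts 2 rose and 4 fell, against 24.7% and 20.2% of all genes, with Npr1 at -0.68 ± 0.13, Pde5a at 0.75 ± 0.19, Npr2 at -0.28 ± 0.09 and Npr3, the clearance receptor, at -0.89 ± 0.32. There 5 were higher and none lower on the muscle scale, where 57.7% of all genes were higher. When 1 library was left out, the rises were 1 without CKD remote 9177 or 9179 or infarct 9174, 9175 or 9178, and the falls ran from 2 (without infarct 9175 or 9178) to 6 (without infarct 9179). Without infarct libraries 9172 and 9179 together 7 fell. The rises in control hearts were 1 without remote 9183 or infarct 9171. With library totals the counts were 4 and 3 in control and 4 and 1 in CKD hearts. In infarct tissue CKD called 2 of 12 higher, where 13.1% of all genes were. They were Corin (1.25 ± 0.33, edgeR adjusted p = 0.0345) and Ide, the insulin-degrading enzyme (0.44 ± 0.15, adjusted p = 0.0471). Neither was called without mice 9172 and 9179. This count changed, within 0 to 2, when any 1 of 11 of the 13 infarct libraries was left out. With no filter 1 was higher, and with library totals 1 was higher and 2 were lower. The median over the tested genes of the list was -0.60 in control and -0.25 in CKD hearts, against -0.01 over all genes in both. For CKD in infarct tissue, none was higher and 11 of 12 were lower on the muscle scale, where 89.4% of all genes were lower.

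Of 5 further early muscle isoforms, 3 fell in control infarcts: Tnnt1, the slow skeletal troponin T (-1.37 ± 0.29), Myl7 (-7.25 ± 2.19) and Myl4, the atrial essential light chain (-4.05 ± 1.47). With mouse as a replicate block 1 fell in place of 3. Without the 9180 remote library 3 fell and 1 rose, in place of 0 rises. On the muscle scale 3 were called higher and 1 lower, against 93.6% and 0.731% of all genes. Myl7 and Myl4 are the atrial markers whose levels set 2 control remote libraries apart. In CKD hearts 1 rose and 1 fell, against 24.7% and 20.2% of all genes. Myl1, a fast skeletal light chain, rose by 1.19 ± 0.32 (edgeR adjusted p = 0.00539), and Tnnt1 fell by 0.62 ± 0.26 (adjusted p = 0.0495). That fall was not called with no filter or with library totals. It was also lost without any 1 of CKD remote libraries 9172, 9174, 9176, 9177 and 9178 or CKD infarct libraries 9174, 9175, 9176 and 9178, and 3 of the isoforms fell without infarct library 9179. CKD called Tnnt1 (1.39 ± 0.32) and Myl7 (6.03 ± 1.80) higher in infarct tissue, where 13.1% of all genes were. Neither was called without mice 9172 and 9179. The Myl7 value rested on the infarct library of mouse 9179, at 171 CPM. The other CKD infarct libraries had 0.499 to 3.003 CPM, and control infarct libraries 0.203 to 1.141 CPM. On the muscle scale CKD called 1 isoform higher and 1 lower in infarct tissue, where 89.4% of all genes were lower. Without libraries 9172, 9179 and 9180 none was higher and 2 were lower. Between regions in CKD hearts 1 was higher (2 with the replicate block) and none lower on that scale, where 57.7% of all genes were higher. There 2 were lower without those libraries.

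Of 13 genes of stretch response and sarcomere repair, 8 fell and none rose in control infarcts, where 33.2% of all genes fell, with the lowest p for Fhl2 (-1.92 ± 0.33), Bag3 (-1.07 ± 0.18), Cryab (-1.46 ± 0.26) and Csrp3 (-1.66 ± 0.30). The muscle scale called 10 higher and none lower in control infarcts (6 with the replicate block), and 10 higher in CKD infarcts. Of all genes, 93.6% were called higher on that scale in control and 57.7% in CKD infarcts. On the TMM scale 3 rose and 1 fell in CKD infarcts, against 24.7% and 20.2% of all genes. The rises were Fhl1 (0.98 ± 0.30), the intermediate filament gene Des (0.81 ± 0.27) and Rcan1, a target of calcineurin (0.98 ± 0.34), while Fhl2 fell by 0.82 ± 0.29. All 3 rises were lost without the infarct library of CKD mouse 9176, and the fall without that of 9174, 9175 or 9178. The list's median was -1.07 in control and -0.13 in CKD hearts. CKD called 6 of the 13 higher in infarct tissue, beside the 8 of 10 genes of the second muscle list and 13.1% of all genes, with the lowest p for Bag3 (0.75 ± 0.19), Fhl2 (1.45 ± 0.40), Cryab (1.196 ± 0.34) and Hspb7 (1.197 ± 0.35). None of them was called without mice 9172 and 9179, and 2 were called with library totals. On the muscle scale none of the 13 was higher and 1 was lower, where 89.4% of all genes were lower.

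Of 12 transcription factors that act on these promoters or on heart muscle, 9 fell in control infarcts, where 33.2% of all genes fell, among them Hand2 (-1.09 ± 0.20), Nkx2-5 (-1.24 ± 0.23) and Tbx5 (-1.84 ± 0.36). Rest, a repressor of Nppa and Nppb in adult ventricle, rose by 0.74 ± 0.11. The muscle scale called 11 higher and none lower, where 93.6% of all genes were called higher. In CKD infarcts 5 fell and 1 rose on the TMM scale, against 20.2% and 24.7% of all genes. Among the falls the lowest p belonged to Mef2d (-0.49 ± 0.15), Mef2a (-0.45 ± 0.15) and Hand2 (-0.49 ± 0.17), and Rest rose by 0.47 ± 0.10. With library totals 5 fell in control and 0 in CKD infarcts. On the muscle scale 4 were called higher in CKD infarcts, where 57.7% of all genes were. When 1 library was left out the falls in CKD infarcts were 1 without infarct 9174 or 9175, and 3 without remote 9174, 9176, 9177 or 9179 or infarct 9177 or 9178. CKD called 5 higher in infarct tissue, against 13.1% of all genes, with the lowest p for Hand2 (1.04 ± 0.19). Without mice 9172 and 9179 none of these was called. None was higher and 8 were lower on the muscle scale, where 89.4% of all genes were lower. In remote myocardium edgeR called no gene of these 4 lists by diet, and DESeq2 called 0. At an unadjusted p under 0.05, edgeR gave 1, 1, 2 and 2 of their genes in the order given here, and 1626 of all 13902 genes.

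Over the 27 libraries, after each group's mean was removed, the members formed no single pattern. Pearson's r of log2 CPM was 0.86 between Nppb and Ankrd1, 0.81 between Nppa and Ankrd1, 0.77 between Nppa and Nppb, and -0.15 between Nppa and Myh6. Without the 9180 library these values were 0.86, 0.76, 0.77 and 0.012. Among 13292 genes averaging 1 CPM or more, the 3 most like Nppa were Gpx3 (0.84), Clu (0.84) and Uchl1 (0.82), and without the 9180 library Gnao1 (0.85), Gpx3 (0.81) and Clu (0.79). Those most like Nppb were Tnfrsf12a (0.94), Mybpc2 (0.85) and Lman1l (0.84), and those most like Ankrd1 were Mvp (0.87), Cnksr1 (0.87) and Myl1 (0.84). Myh6 had the closest matches of all, namely Slc2a4 (0.98), Abcc8 (0.98) and Rxrg (0.97). Myh7 was matched by Clip4 (0.89), Fbxo40 (0.89) and Klhl40 (0.87), Acta1 by Trim16 (0.85), Cnksr1 (0.82) and 3110040M04Rik (0.82), and Xirp2 by Sh3bgr (0.87), Ppm1e (0.87) and Cystm1 (0.85). Without the 9180 library Xirp2 was matched by Arhgef37 (0.90), Sh3bgr (0.89) and Cryab (0.88), Ankrd1 by Cnksr1 (0.87), Mybpc2 (0.84) and Mvp (0.83), and the third match became Me3 for Myh6 and Nrap for Myh7. The same 3 genes stayed with Nppb and with Acta1. The points share tissue makeup and depth within a library and pieces of a heart, so these values describe the libraries only.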

How the data were processed

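Bulk RNA was measured in 27 libraries from 14 mice. The deposited table holds whole-number read counts per gene, a unit taken from the values. The submitters' processing notes name kallisto 0.48.0 and build GRCm39; how transcript estimates became counts is not given in the sources used here, and no gene coordinates are given on that build. Promoters came from RefSeq (GRCm38.p6), transcript lengths from a GENCODE annotation of that build. The members and lists were chosen with earlier results of these data known.

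Counts were filtered (filterByExpr), scaled with TMM and tested in edgeR 4.0.16 (R 4.3.3; quasi-likelihood F test), adjusting p over all genes by Benjamini-Hochberg; a gene was called under 0.05. Each region's diet comparison used that region's libraries alone. Region effects and the difference of effects came from all 27 libraries with 4 group means. Standard errors were derived from the fold change and F. The muscle scale equalised the mean log2 count (pseudocount 0.5) of 12 heart muscle genes. Myosin ratios were compared by exact tests, adjusted over 5. Log2 CPM for correlations used a prior count of 2. The tests were tested on simulated data.

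Alternatives were DESeq2 1.42.0 and its size factors, no filter, 1 fit of all libraries, mouse 9179 as control, a second muscle list, libraries left out, and mouse as a replicate block. Library totals in place of TMM were added after seeing the data. Both pieces of a heart share a mouse number, and so form pairs; after removal of group means the 13 pairs correlated at -0.10 to 0.40 (median 0.17), against -0.02 for other mice. No 2 libraries were duplicates (lowest chi-square per degree of freedom 9.03). Named genes were all 7 members, up to 4 called genes per list and comparison with the smallest p, and the 3 genes most like each member. The labels give no batch.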

Additional observations from a re-analysis of the deposited data

Results flagged for a closer look

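Of 32 sets of values checked (the log2 CPM of the 7 members and the Myh7 to Myh6 log2 ratio in each of the 4 groups), 6 held a library whose gap to its nearest neighbour passed Dixon's 95% limit, which chance passes in about 1 of 20 groups. In control remote tissue the library of mouse 9180 was the lowest for Myh6 (log2 CPM 13.72), and the highest for Ankrd1 (12.08), Xirp2 (10.24) and the Myh7 to Myh6 log2 ratio (-3.523). In CKD remote tissue the library of mouse 9179, whose title and treatment label disagree, was the lowest for Acta1 (6.823) and Ankrd1 (8.496).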

How the results depend on the processing

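Under the alternatives other than leaving out 1 library, 763 recomputed results stayed the same. This means that a value kept its direction and side of the threshold, or that a count moved by at most 1.5 times. Of the others, 12 values passed the threshold, 8 lost it, 11 changed sign and 64 counts moved by over 1.5 times or to or from 0. With DESeq2 size factors, DESeq2 or a fit of all 27 libraries, 1 member (Myh6) in place of 0 was called for CKD in infarct tissue. With library totals, with mouse 9179 as control, or with mouse as a replicate block, 2 in place of 1 were called between regions in control hearts, Nppa being added (1.97, 1.88 and 2.46). The block also called Xirp2 in CKD hearts (0.63) and, on the muscle scale of control hearts, lost Myh6 (-0.47) and added Acta1 (1.47). It changed no other member's call. Myh6 in CKD hearts lost its call with no filter (-0.95), 9179 as control (-0.96) and library totals (-0.75), and library totals called Acta1 (1.59) and Xirp2 (0.99) there. Libraries permuted without pairing kept the ratio calls. Without CKD infarct libraries 9172 and 9179 the ratio values were -0.79 for CKD in infarct tissue and 1.56 between regions in CKD hearts, where 5 pairs allow no exact p below 0.0625.

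Counts of all genes called depended more on the setting. In remote tissue 3 became 162 with DESeq2 and 1 with no filter, all libraries, 9179 as control or library totals. In infarct tissue 2908 became 1926 with no filter, 5067 with all libraries, 4438 with DESeq2 and 0 without 9172 and 9179, and 1883 higher against 1025 lower became 791 against 2846 with library totals. On the muscle scale 8 in remote tissue became 1 with 9179 as control or the second list, and 10472 for the difference of effects became 0 with the block.

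Sign changes were in values that were not called. With library totals Nppa for CKD in infarct tissue was -0.11. On the muscle scale the second list gave 0.0020 for Myh6 in remote and -0.072 for Acta1 in infarct tissue. For the difference of effects on that scale, Ankrd1 was -0.18 with 9179 as control, -0.61 with the block, -0.41 without 9172, 9179 and 9180, and -0.073 with the second list. Nppa was -0.87 and Xirp2 -0.12 with the block, and -0.52 and -0.25 without those 3 libraries. On the muscle scale no member was called for CKD in infarct tissue without them.

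Leaving out each library in turn on the TMM scale, members called ran from 1 to 2 between regions in control hearts (2 without remote 9180, infarct 9171 or infarct 9184), from 2 to 4 in CKD hearts, and from 0 to 1 for CKD in infarct tissue, with 0 in the other comparisons. Genes called ran from 1 to 6 for CKD in remote and from 0 to 4651 in infarct tissue. Sign changes were Xirp2 for CKD in remote tissue (-0.62 to 0.018), Nppa for CKD in infarct tissue (-0.38 to 0.29) and Myh7 between regions in CKD hearts (-0.063 to 0.35). The ratio ran from 1.71 to 2.13 between regions in control hearts, where 5 hearts allow no exact p below 0.0625, from 1.01 to 1.35 in CKD hearts, from -0.52 to -0.20 for CKD in remote and from -1.35 to -0.95 in infarct tissue. The cause of these changes was not tested. Precision is limited by 6 to 8 libraries a group.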
